A study of Mus musculus with 6 samples.

Results

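The chemokine genes of inguinal white adipose tissue (IWAT) were examined in mice carrying 1 nonsense allele of *Ebf2*. The set held every Ccl, Ccr, Cxcl, Cxcr and Ackr gene of the table with a number in its symbol, together with *Cx3cl1*, *Cx3cr1*, *Xcl1* and *Xcr1*. Pseudogenes were left out, and at least 10 counts summed over the libraries were required. Of 69 such entries 59 met the minimum, among 55491 genes in the table, and they carried 58 symbols because *Ccl21b* appeared under 2 gene IDs. They comprised 36 ligands, 19 signalling receptors and 4 atypical receptors.

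Bulk RNA-seq was made from IWAT of male C57BL/6J mice aged 4 weeks that were fed a regular chow diet. *Ebf2+/+* mice (wild type, n = 3) were compared with *Ebf2E165X/+* mice (n = 3), which carry the E165X stop codon on 1 allele in every cell of the body, placed there by CRISPR/Cas9 editing. Each mouse gave 1 library. The comparison asks how the young depot differs when 1 copy of *Ebf2*, a transcription factor of adipocyte precursors and of brown and beige adipocytes, carries a stop codon.

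Chemokines are small secreted proteins that guide leukocytes along concentration gradients. They act through receptors coupled to inhibitory G proteins, and atypical receptors bind the same ligands without that coupling and remove or present them. In adipose tissue, monocyte chemoattractants of the CC family are known for macrophage recruitment, *Ccl11* for eosinophils, and *Ccl19*, *Ccl21* and *Cxcl13* for the organization of lymphocytes in lymph nodes and fat-associated lymphoid tissue.

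The libraries held 106820505 to 135039488 counts each, and the chemokine and receptor genes took 0.121% to 0.158% of them. Levels are given as CPM, the count of a gene scaled to 1 common library total after correction of each library's total by its TMM factor. *Ebf2* itself had 4603, 4357 and 4611 counts in the *Ebf2+/+* mice, against 2635, 2863 and 2697 in the *Ebf2E165X/+* mice. All 3 *Ebf2E165X/+* mice were lower. The level was 39.0 ± 2.14 CPM (SD, n = 3) against 22.3 ± 1.04 CPM (SD, n = 3), a log2 fold change of -0.81 ± 0.076 (SE), with an adjusted *P* of 0.0596 in edgeR's quasi-likelihood test and of 2.49e-13 in DESeq2. All 8 adipocyte markers had counts in every library, with *Lpl* the most abundant. Their log2 fold changes were all below 0 (median -0.25), opposite in sign to most chemokine and receptor genes. Of the 8, 1 (*Adipoq*) was lower without overlap, beside 5.75% of all genes tested. Their summed level was 22971 ± 1575 CPM in *Ebf2+/+* mice and 19550 ± 4340 CPM in *Ebf2E165X/+* mice (SD, n = 3 each), with overlap. Markers of lymph node stroma and follicles (*Glycam1*, *Cr2*, *Fcer2a* and 5 others) also had counts in every library. Their summed level was 974 to 1051 CPM in *Ebf2+/+* mice and 978 to 1202 CPM in *Ebf2E165X/+* mice, so the groups overlapped, and *Mfge8*, *Glycam1* and *Enpp2* held most of it. All 8 had log2 fold changes above 0 (median 0.25), and 3 of 8 (*Cr2*, *Fcer2a* and *Chst4*) were higher without overlap, beside 5.09% of all genes tested.

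No chemokine or receptor gene passed the threshold of an adjusted *P* under 0.05 with a fold above 1.5, which is 0 of 59 beside a background of 0.00918% of all genes tested (3 of 32664). DESeq2 also called none of them, beside 0.283% of all genes. At an unadjusted *P* under 0.05, edgeR gave 2 members higher in *Ebf2E165X/+* mice (*Ccl8* and *Ccl11*) and 1 lower (*Ccl21d*), beside backgrounds of 1.68% and 3.09% of all genes. That is 3 of 59 against 4.77% in both directions together, a share near the background. DESeq2 gave 5, with *Ccl8*, *Ccl11*, *Ccl21a* and *Cxcr4* higher and *Ccl27a* lower, beside 1.62% of all genes higher and 3.26% lower (4.87% together).

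The CPM values of the genotypes did not overlap for 4 of 59 members with higher values in *Ebf2E165X/+* mice (*Ccl8*, *Ccl11*, *Ccl4* and *Cxcr5*), beside 5.09% of all genes tested. They did not overlap for 1 of 59 with lower values (*Ccl27a*), beside 5.75%. All 5 were among the 49 members that reached 10 counts in each library, where the backgrounds were 6.66% higher and 6.78% lower. With DESeq2's size factors, 3 members did not overlap, *Ccl8* and *Ccl4* higher and *Ccl27a* lower, beside 4.64% of all genes higher and 6.08% lower.

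More members lay above 0 than below. The log2 fold change was above 0 for 39 of 59 members beside 52.1% of all genes, and for 33 of the 49 members with at least 10 counts in every library beside 56.1% of such genes. The median over the members was 0.13, and over all genes 0.014. Among the 36 ligands 21 were above 0, among the 19 receptors 14, and among the atypical receptors all 4. With DESeq2's scaling the members above 0 numbered 37. The members' median was 0.048 without *Ebf2+/+* mouse 1 and 0.051 without *Ebf2+/+* mouse 2.

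The summed level of the 59 genes was 1259, 1244 and 1438 CPM in the *Ebf2+/+* mice, against 1517, 1483 and 1494 CPM in the *Ebf2E165X/+* mice. The *Ebf2E165X/+* values lay close together and above all *Ebf2+/+* values, at 1498 ± 17.5 CPM against 1314 ± 108 CPM (SD, n = 3 each). The ligands made up most of this sum, with 1133 ± 29.5 CPM against 975 ± 71.7 CPM, and did not overlap either. A few genes weigh most in these sums. *Cxcl12*, *Ccl21a* and *Ccl6*, the 3 most counted members, held 40.8% to 48.2% of the members' counts in a library. Each of these 3 genes by itself overlapped between the genotypes. The sum of the signalling receptors overlapped, at 295 ± 2.78 CPM against 271 ± 27.5 CPM. In bulk tissue, fewer cells of a type and less RNA per cell cannot be told apart.

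**Figure D1:**
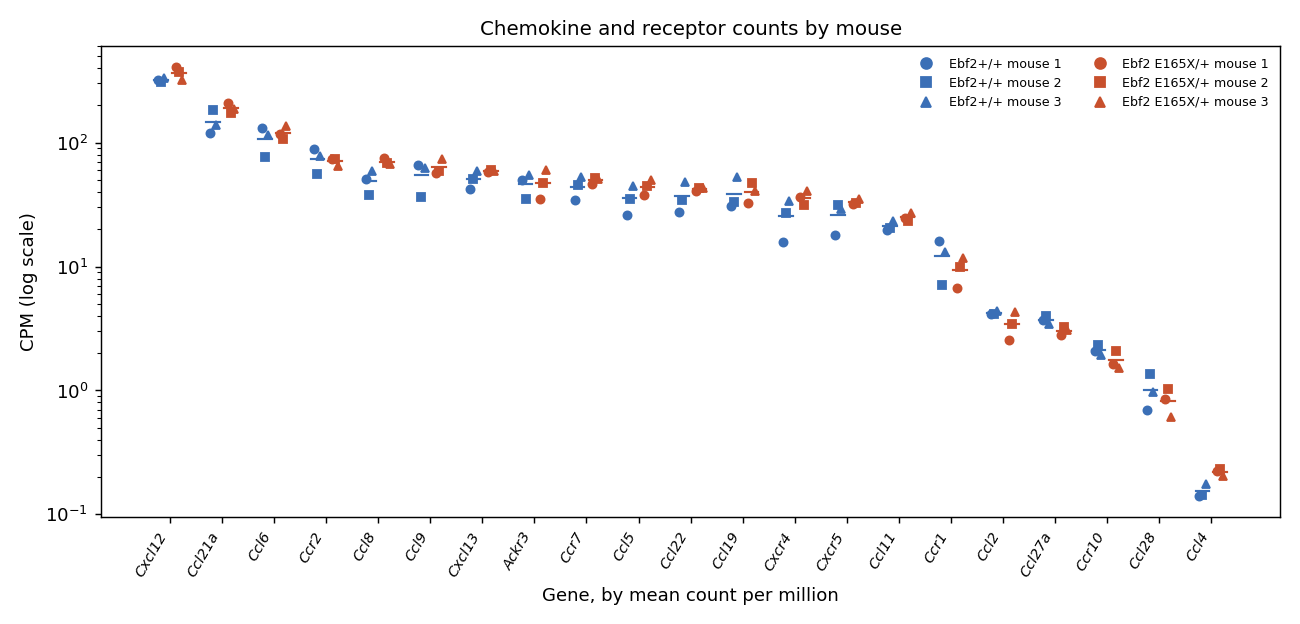
CPM (log axis) of 21 chemokine and receptor genes in each mouse, ordered by mean level, with blue for *Ebf2+/+*, orange for *Ebf2E165X/+*, a marker shape for each mouse and a short line for each genotype's mean. *Cxcl12* and *Ccl21a* were the most counted genes, and of the genes drawn *Ccl8*, *Ccl11*, *Cxcr5* and *Ccl4* had all orange points above the blue ones and *Ccl27a* all below.

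The monocyte chemoattractants differed in the sign of their log2 fold changes. *Ccl8*, a chemoattractant of monocytes and other leukocytes that resident macrophages make, had 6106, 3982 and 7315 counts in the *Ebf2+/+* mice. It had 8649, 8476 and 8603 in the *Ebf2E165X/+* mice. All 3 *Ebf2E165X/+* mice were higher, and the nearest mice of the 2 genotypes were 8.14 CPM apart. The level was 49.2 ± 10.7 CPM against 69.9 ± 4.19 CPM (SD, n = 3 each), 1.42-fold higher, with a log2 fold change of 0.51 ± 0.15 (SE). The unadjusted *P* from edgeR was 0.0114, the adjusted *P* 0.783, and the adjusted *P* from DESeq2 0.266. Leaving out any 1 mouse kept the log2 fold change between 0.34 and 0.64.

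The other monocyte chemoattractants had log2 fold changes below 0. *Ccl2*, the prototype monocyte chemoattractant, had 500, 436 and 541 counts in the *Ebf2+/+* mice, against 298, 431 and 550 in the *Ebf2E165X/+* mice. After scaling, 1 *Ebf2E165X/+* mouse lay within the narrow *Ebf2+/+* range of 4.14 to 4.37 CPM and the others below it, and the log2 fold change was -0.30 ± 0.21 (SE), or -0.12 without *Ebf2E165X/+* mouse 1 and -0.49 without *Ebf2E165X/+* mouse 3. *Ccl12*, a mouse relative of *Ccl2*, had a log2 fold change of -0.25 ± 0.19, and *Ccl7* one of -0.19 ± 0.16, both with overlap. The receptor *Ccr2* had 10666, 5915 and 9686 counts against 8529, 9196 and 8346. Its *Ebf2E165X/+* values fell inside the range of the *Ebf2+/+* values, with a log2 fold change of -0.07 ± 0.16.

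These 4 ligand genes sit with *Ccl11* and *Ccl1* in 1 cluster on chromosome 11 (GRCm38, 82035571 to 82305690), and the end of *Ccl12* and the start of *Ccl8* are 11785 bases apart on the plus strand. The 250 bases before the starts of these neighbours are shown because their log2 fold changes differ in sign. They come from RefSeq (GRCm38.p6), plus strand, for *Ccl8* at chr11:82114935-82115184 and for *Ccl12* at chr11:82101595-82101844, with the TATA box letters TATAAA in capitals.
Ccl8: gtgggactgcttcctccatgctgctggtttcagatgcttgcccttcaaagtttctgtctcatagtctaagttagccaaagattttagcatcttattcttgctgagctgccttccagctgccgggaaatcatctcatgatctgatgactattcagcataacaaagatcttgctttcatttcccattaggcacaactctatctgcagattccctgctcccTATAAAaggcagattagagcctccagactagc
Ccl12: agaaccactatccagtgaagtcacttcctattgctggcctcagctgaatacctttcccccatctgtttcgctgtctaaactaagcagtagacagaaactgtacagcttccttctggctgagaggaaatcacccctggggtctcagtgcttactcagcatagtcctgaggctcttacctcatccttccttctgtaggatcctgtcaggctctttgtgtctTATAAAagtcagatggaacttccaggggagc
Both windows hold TATAAA, beginning 32 bases before the *Ccl8* start and 31 before the *Ccl12* start.

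A RefSeq promoter window was found for 45 of the 58 symbols, giving 52 windows, and both motifs below were searched on both strands, where they do not overlap each other. TATAAA was in 13 of 52 (25%), beside 12.4% of all 32851 windows. The core of the palindromic motif that EBF proteins bind, CCCNNGGG, was in 5 of 52 (9.62%), beside 11.8% of all windows, and the members with it were *Ccl12*, *Ccl27a*, *Ccl27b*, *Cxcl10* and *Cxcr2*. These are counts of letters in short windows and say nothing of binding.

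*Ccl11* (eotaxin), which attracts eosinophils through *Ccr3*, had 2385, 2141 and 2870 counts in the *Ebf2+/+* mice, against 2864, 2895 and 3475 in the *Ebf2E165X/+* mice. After scaling, all 3 *Ebf2E165X/+* mice were higher, but the nearest mice were only 0.0227 CPM apart, and the genotypes overlapped with DESeq2's size factors. The level was 21.1 ± 1.79 CPM against 25.02 ± 1.99 CPM (SD, n = 3 each), with a log2 fold change of 0.25 ± 0.098 (SE) and an unadjusted *P* of 0.0379 from edgeR. *Ccl24*, another ligand of *Ccr3*, was at 3.90 ± 0.687 against 3.25 ± 0.842 CPM with a log2 fold change of -0.26 ± 0.23. *Ccr3* itself had 55 to 177 counts a library, and its log2 fold change of 0.07 had an SE of 0.49. The 5 eosinophil markers summed to 5.85 ± 1.45 CPM against 7.63 ± 0.471 CPM with overlap, *Il5ra* being the most abundant, and *Siglecf* and *Epx* had 5 to 76 counts a library.

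Levels of other myeloid and mast cell markers are given beside *Ccl8* and *Ccl11*. The 8 macrophage markers, with *Mrc1* the most abundant, summed to 1047, 690 and 896 CPM in the *Ebf2+/+* mice, against 959, 915 and 983 CPM in the *Ebf2E165X/+* mice, with overlap. The 7 mast cell markers, all counted in every library and led by *Kit*, summed to 98.5, 83.0 and 107 CPM against 127, 117 and 128 CPM without overlap. *Kit* itself was at 25.1 against 23.9 CPM with overlap, a log2 fold change of -0.07, and the other 6 had log2 fold changes above 0. Of the 7, 4 (*Mcpt4*, *Tpsb2*, *Cpa3* and *Mrgprb1*) were higher without overlap, beside 5.09% of all genes tested. The same 4 had an unadjusted *P* under 0.05 in edgeR, beside 1.68% of all genes higher, and none of the 7 had an adjusted *P* under 0.05. *Mcpt4*, a protease of connective tissue mast cells, had 2207, 1933 and 2619 counts against 3480, 3480 and 3834. Every *Ebf2E165X/+* mouse was above every *Ebf2+/+* mouse, with a log2 fold change of 0.60 ± 0.09 (SE) and an adjusted *P* of 0.229 from edgeR. The 6 monocyte markers summed to 192 ± 20.9 against 209 ± 5.12 CPM with overlap. Of these, 5 had log2 fold changes above 0, and 2 (*Chil3* and *Spn*) were higher without overlap, beside 5.09% of all genes tested. *Chil3* was at 4.17 against 6.26 CPM, with a log2 fold change of 0.59 ± 0.15 (SE) and an unadjusted *P* of 0.00467 from edgeR. The part of these cells in the *Ccl8* and *Ccl11* values was not tested.

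The inflammatory CC ligands that signal through *Ccr1* and related receptors included *Ccl6* and *Ccl9*, which macrophages and other myeloid cells make in abundance. *Ccl6* had 15772, 8009 and 14251 counts in the *Ebf2+/+* mice, against 13557, 13434 and 17548 in the *Ebf2E165X/+* mice. *Ccl9* had 7917, 3836 and 7761 counts against 6532, 7332 and 9473. In both genes *Ebf2+/+* mouse 2 was far below every other mouse, which set the sign of the difference, since the log2 fold changes of 0.17 ± 0.20 and 0.20 ± 0.22 (SE) became -0.04 in each without that mouse. *Ccl5*, made by T cells and NK cells, was at 35.4 ± 9.42 against 44.2 ± 5.84 CPM with a log2 fold change of 0.32 ± 0.19. Without *Ebf2+/+* mouse 1 it was 0.13, and without *Ebf2+/+* mouse 3 it was 0.51 with an unadjusted *P* of 0.0198 from edgeR.

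*Ccl4*, a chemoattractant of T cells and monocytes, had the largest log2 fold change of the members with at least 10 counts in every library, 0.51 ± 0.29 (SE). It rested on 17, 15 and 22 counts against 26, 29 and 26. The 3 *Ebf2E165X/+* mice were higher, at a level of 0.154 ± 0.0206 against 0.220 ± 0.0152 CPM, with an unadjusted *P* of 0.113 from edgeR. *Ccl3*, its neighbour in the second ligand cluster of chromosome 11 (83525778 to 83664683), had 9 to 23 counts a library and overlapped. The receptor *Ccr1* had 1945, 745 and 1613 counts against 780, 1229 and 1490, with overlap and a log2 fold change of -0.36 ± 0.32 that was -0.11 without *Ebf2+/+* mouse 1 and -0.65 without *Ebf2+/+* mouse 2.

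The ligands and receptor of lymphoid organization, *Ccl19*, the *Ccl21* copies and *Ccr7*, summed to 187, 266 and 248 CPM in the *Ebf2+/+* mice, against 293, 276 and 285 CPM in the *Ebf2E165X/+* mice. The genotypes did not overlap, and *Ebf2+/+* mouse 1 was lowest. The sum was 1.22-fold higher in *Ebf2E165X/+* mice, and 1.10-fold without that mouse. Most of the sum was *Ccl21a*, which lymphatic endothelium and lymph node stroma make to draw *Ccr7*-bearing T cells and dendritic cells. *Ccl21a* had 14286, 19181 and 17320 counts against 24205, 21729 and 23828. Its level was 147 ± 32.1 against 190 ± 17.9 CPM (SD, n = 3 each), and *Ebf2+/+* mouse 2 at 182 CPM lay above *Ebf2E165X/+* mouse 2 at 174 CPM. The log2 fold change was 0.37 ± 0.16 (SE), with an unadjusted *P* of 0.0517 from edgeR and 0.0358 from DESeq2. In edgeR it was 0.22 without *Ebf2+/+* mouse 1 (unadjusted *P* of 0.186) and 0.54 without *Ebf2+/+* mouse 2 (unadjusted *P* of 0.00493). *Ccl19* had a log2 fold change of 0.05 ± 0.22 that turned below 0 when *Ebf2+/+* mouse 1, *Ebf2+/+* mouse 2 or *Ebf2E165X/+* mouse 2 was left out. *Ccr7* was at 44.0 ± 9.17 against 49.7 ± 3.03 CPM, with a log2 fold change of 0.18 ± 0.15 that was 0.01 without *Ebf2+/+* mouse 1.

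Of the 4 counted *Ccl21* entries, 3 were compared and are near-identical copies, so their separate counts are uncertain. *Ccl21a* (ENSMUSG00000094686) lies on chromosome 4 from 42772860 to 42773993 on the minus strand. *Ccl21d* (ENSMUSG00000094065) lies on chromosome 4 from 41903610 to 41904743 and 1 *Ccl21b* entry (ENSMUSG00000095675) from 42255767 to 42256432, both on the plus strand. The other *Ccl21b* entry (ENSMUSG00000096271) is on the unplaced scaffold GL456350.1, and its sequence was not compared. Coding bases 70 to 210 of the GENCODE M21 transcripts (GRCm38) are shown because they hold both positions at which the 402 coding bases differ, in capitals.
Ccl21a: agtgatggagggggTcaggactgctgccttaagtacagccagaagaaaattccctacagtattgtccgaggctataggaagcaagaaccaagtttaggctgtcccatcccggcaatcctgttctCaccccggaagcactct
Ccl21b: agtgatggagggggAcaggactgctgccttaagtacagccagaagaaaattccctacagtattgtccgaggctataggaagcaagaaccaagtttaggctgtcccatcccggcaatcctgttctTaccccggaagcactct
Ccl21d: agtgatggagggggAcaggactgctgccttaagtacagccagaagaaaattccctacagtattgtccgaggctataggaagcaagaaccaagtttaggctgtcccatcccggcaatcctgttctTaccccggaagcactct
Counted from the first base of the start codon in *Ccl21a*, the substitutions are T84A and C194T, an identity of 99.5%. The coding bases of *Ccl21b* and *Ccl21d* were identical, and the whole *Ccl21a* and *Ccl21d* transcripts differed at 6 of 870 bases.

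The minor copies differed from library to library. *Ccl21d* had 299 counts in *Ebf2+/+* mouse 1 and 0 in every other library. In that same mouse the chromosome 4 entry of *Ccl21b* had 0, while it had 285 and 200 in the other *Ebf2+/+* mice and 264, 214 and 519 in the *Ebf2E165X/+* mice. The unadjusted *P* of *Ccl21d* (0.0467, edgeR) thus rested on a single library, and DESeq2 gave it no *P*. The scaffold entry of *Ccl21b* was at 1.13, 3.05 and 1.33 CPM against 2.64, 1.43 and 3.40 CPM, with a log2 fold change of 0.44 ± 0.45 (SE). Summed over the 4 entries, *Ccl21* was at 122.5, 188 and 143 CPM against 214, 177 and 193 CPM, with overlap. The minor copies together gave 2.95 to 7.45 CPM a library, so that *Ccl21a* carried nearly the whole of the *Ccl21* level.

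**Figure D2:**
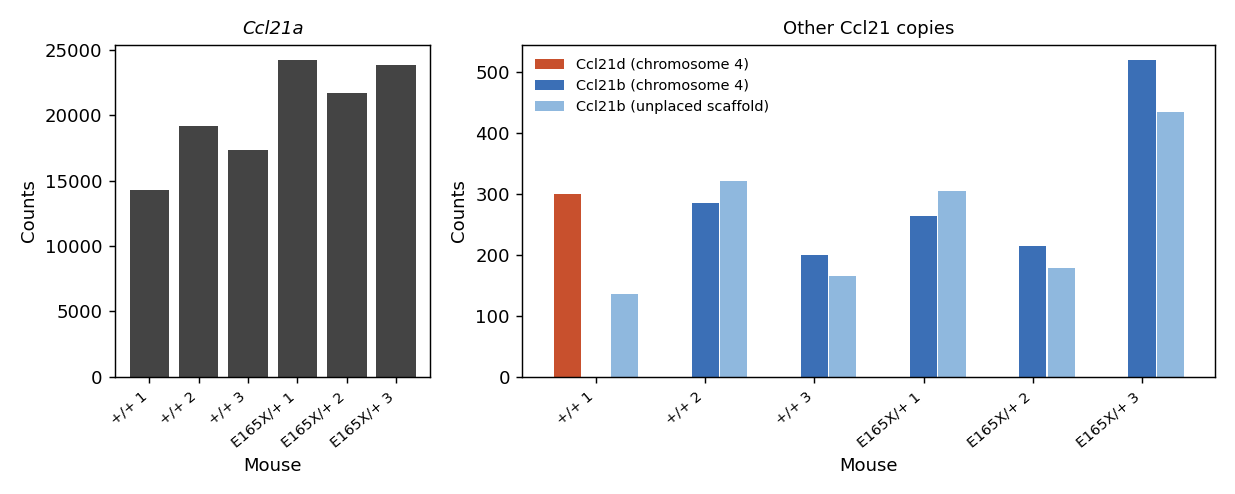
Deposited counts of *Ccl21a* (left panel) and of the *Ccl21b* and *Ccl21d* entries (right panel) in each of the 6 mice, as bars from 0. *Ccl21a* ran from 14286 to 24205 counts, while *Ccl21d* had 299 counts in *Ebf2+/+* mouse 1 and 0 elsewhere, in the mouse whose chromosome 4 *Ccl21b* entry was at 0.

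*Cxcl13* and its receptor *Cxcr5*, which place B cells in follicles, summed to 60.2, 82.8 and 88.1 CPM in the *Ebf2+/+* mice, against 89.8, 92.4 and 94.1 CPM in the *Ebf2E165X/+* mice. The genotypes did not overlap and again *Ebf2+/+* mouse 1 was lowest. *Cxcr5* had 2176, 3318 and 3586 counts against 3665, 4031 and 4490. The nearest mice were 0.193 CPM apart, the separation was lost with DESeq2's size factors, and the log2 fold change was 0.33 ± 0.19 (SE). Without *Ebf2+/+* mouse 1 it was 0.11. *Cxcl13* was at 50.8 ± 8.57 against 59.1 ± 0.966 CPM, with a log2 fold change of 0.22 ± 0.12, or 0.083 without *Ebf2+/+* mouse 1. The summed level of the pair, 1.196-fold higher in *Ebf2E165X/+* mice, was 1.07-fold higher without that mouse.

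B cell markers were also lowest in *Ebf2+/+* mouse 1. The 7 markers, all counted in every library and led by *Cd22*, summed to 397, 634 and 637 CPM in the *Ebf2+/+* mice, against 654, 745 and 683 CPM in the *Ebf2E165X/+* mice. The genotypes did not overlap. All 7 log2 fold changes were above 0, beside 52.1% of all genes. None had an unadjusted *P* under 0.05 in edgeR, and 4 of the 7 were higher without overlap, beside 5.09%. Among the lymph node markers, *Cr2*, carried by B cells and follicular dendritic cells, was at 43.5, 68.7 and 67.9 CPM against 73.0, 80.9 and 72.2 CPM. *Ebf2+/+* mouse 1 was again lowest. The 5 plasma cell markers, led by *Jchain*, summed to 72.1 ± 3.85 against 111 ± 25.3 CPM. The genotypes did not overlap in that sum, most of whose difference was *Jchain*, at 25.7 against 59.8 CPM on average. *Jchain* itself overlapped, with *Ebf2E165X/+* mouse 1 at 30.5 CPM below *Ebf2+/+* mouse 2 at 34.5 CPM. In edgeR the unadjusted *P* was 0.00995 for *Jchain* and 0.0448 for *Mzb1*, both with means higher in *Ebf2E165X/+* mice, and 0.0426 for *Prdm1*, a transcription factor of plasma cells and other lymphocytes that was lower at 7.27 against 5.57 CPM. The 8 T cell markers summed to 335 ± 50.3 against 377 ± 27.3 CPM with overlap. Of these, 7 had log2 fold changes above 0, while *Trac* had -0.31 ± 0.13 (SE), with an unadjusted *P* of 0.0472 from edgeR. The 6 lymphatic endothelial markers summed to 150 ± 16.0 against 173 ± 27.6 CPM with overlap. The part of these cells and of lymph node tissue in the *Ccl21a*, *Cxcl13* and *Cxcr5* values was not tested.

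**Figure D3:**
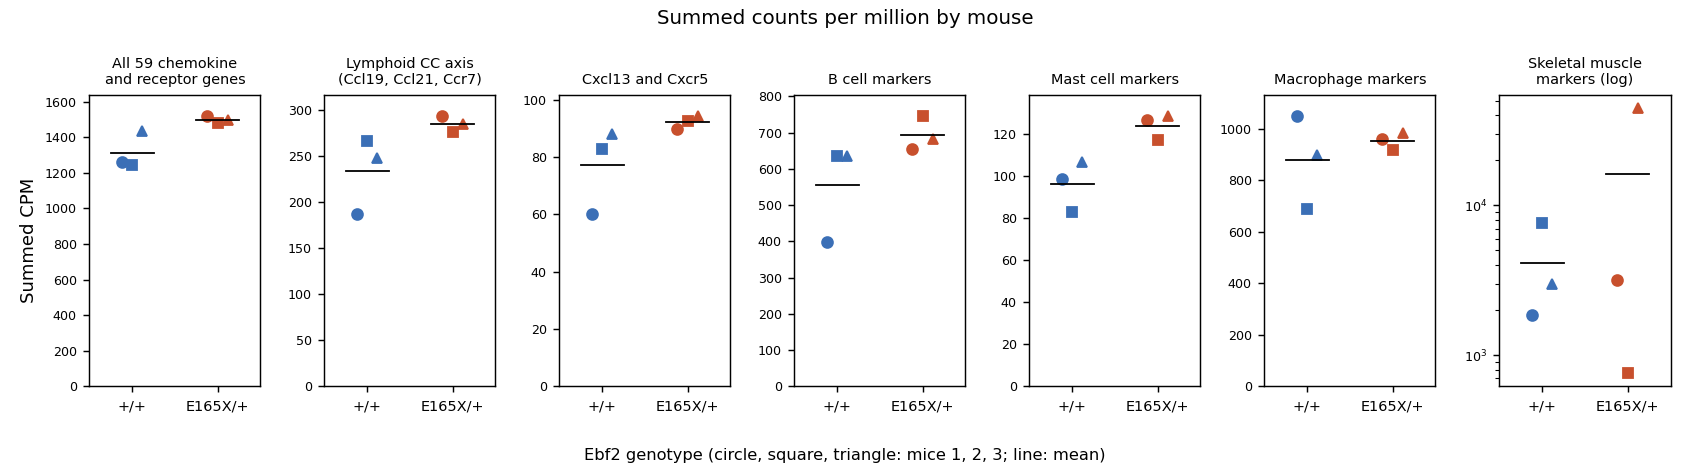
Summed CPM in each mouse for all 59 genes, for 2 groups of chemokine genes and for 4 lists of cell type markers, with a marker shape for each mouse and a line at each genotype's mean (axes from 0 except the log axis of the muscle markers). *Ebf2+/+* mouse 1 (circle) was the lowest mouse for the lymphoid CC genes, *Cxcl13* with *Cxcr5*, and the B cell markers, and *Ebf2E165X/+* mouse 3 (triangle) held 44794 CPM of muscle markers.

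*Cxcl12*, the stromal ligand that holds hematopoietic and immune cells in their niches, was the most counted member. It had 38568, 32431 and 41058 counts in the *Ebf2+/+* mice, against 46844, 46249 and 40972 in the *Ebf2E165X/+* mice. *Ebf2E165X/+* mouse 3 was inside the *Ebf2+/+* range, and the level was 320 ± 11.8 against 365 ± 42.7 CPM, with a log2 fold change of 0.19 ± 0.11 (SE) that was 0.11 without *Ebf2E165X/+* mouse 1. Its receptor *Cxcr4* had 1893, 2841 and 4167 counts against 4192, 3897 and 5223. The lowest value was again that of *Ebf2+/+* mouse 1, and the log2 fold change of 0.50 ± 0.25 had an unadjusted *P* of 0.0826 from edgeR and 0.0454 from DESeq2. Without *Ebf2+/+* mouse 1 it was 0.24. *Ackr3*, which scavenges *Cxcl12*, was at 46.6 ± 10.3 against 47.5 ± 12.3 CPM, and its log2 fold change of 0.03 ± 0.22 changed sign with the mouse left out.

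The ligands and receptors of T cell homing split, with 6 of 13 above 0 and 7 below. *Ccl27a*, a ligand of *Ccr10* known from skin, was the member whose *Ebf2E165X/+* mice were all lower. It had 447, 420 and 424 counts against 326, 405 and 393, at 3.71 ± 0.282 against 3.04 ± 0.214 CPM. The log2 fold change was -0.29 ± 0.15 (SE), with an unadjusted *P* of 0.101 from edgeR and 0.0459 from DESeq2. Further *Ccl27a* gene IDs, which fell under the minimum, had 4 and 8 counts over all libraries.

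*Ccl28*, another ligand of *Ccr10*, and *Ccr10* itself had values on the same side, with overlap. *Ccl27b*, a further ligand of that axis, had 0 to 10 counts a library and overlapped. *Ccl28* had 84, 143 and 121 counts against 98, 128 and 78, with a log2 fold change of -0.29 ± 0.32 that was -0.03 without *Ebf2+/+* mouse 2. *Ccr10* had 251, 244 and 238 counts against 190, 261 and 195, with a log2 fold change of -0.27 ± 0.20. Epithelial markers, with *Krt5* the most abundant, summed to 80.2, 6.39 and 42.7 CPM against 35.4, 6.42 and 14.7 CPM. They ran from 6.39 to 80.2 CPM among the mice, with overlap. Their part in the *Ccl27a* value was not tested.

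*Ccl22*, the ligand of *Ccr4* that dendritic cells make to draw regulatory T cells, had 3298, 3622 and 6009 counts against 4737, 5359 and 5549, with a log2 fold change of 0.21 ± 0.19 (SE). Without *Ebf2+/+* mouse 1 it was 0.02, and without *Ebf2+/+* mouse 3 it was 0.43 with an unadjusted *P* of 0.00853 from edgeR. *Ccr4* had a log2 fold change of 0.31 ± 0.25 and *Ccr6*, which B cells and some T cells carry, one of 0.37 ± 0.19. With each mouse left out, *Ccr4* ran from 0.14 to 0.55 and *Ccr6* from 0.21 to 0.48. *Ccl17*, the other *Ccr4* ligand, had 22 to 74 counts a library and overlapped. *Ccl25* and *Ccr9*, the pair of gut and thymus homing, had log2 fold changes of 0.01 ± 0.12 and 0.13 ± 0.10.

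Neutrophil ligands were low. *Cxcl1* had 60 to 117 counts a library, and *Cxcl2* and *Cxcl5* had 5 to 37. Their receptor *Cxcr2* was at 8.79 ± 1.54 against 10.04 ± 1.58 CPM, with a log2 fold change of 0.19 ± 0.17 (SE). Neutrophil markers, led by *S100a9*, summed to 48.1 ± 12.6 against 64.7 ± 14.5 CPM with overlap. All 8 had log2 fold changes above 0 (median 0.42), beside 52.1% of all genes. Of the 8, 1 was higher without overlap, beside 5.09% of all genes tested. That gene was *Ltf*, with a log2 fold change of 0.75 ± 0.21 (SE) and an unadjusted *P* of 0.00701 from edgeR.

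The interferon-induced ligands *Cxcl9*, *Cxcl10* and *Cxcl11* lay slightly below 0, at log2 fold changes of -0.06 ± 0.18, -0.16 ± 0.22 and -0.06 ± 0.41 (SE). Each turned above 0 with some mouse left out, reaching 0.11, 0.04 and 0.25. Their receptor *Cxcr3*, carried by activated T cells and NK cells, had one of 0.25 ± 0.14. The summed level of the axis was 46.6 ± 9.68 against 45.8 ± 3.92 CPM, the closest of the axes between the genotypes.

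The remaining 11 members had log2 fold changes above 0 in edgeR with all mice, none with an unadjusted *P* under 0.05. The sign was not stable, since 6 of them (*Ackr1*, *Ackr4*, *Cx3cr1*, *Cxcl14*, *Xcl1* and *Xcr1*) fell below 0 with some mouse left out, and *Cx3cr1* and *Xcl1* lay just below 0 in DESeq2. *Cxcr6*, a receptor of tissue-resident lymphocytes, had 0.26 ± 0.16 (SE), and its ligand *Cxcl16* had 0.15 ± 0.13. With each mouse left out, *Cxcr6* ran from 0.12 to 0.37 and *Cxcl16* from 0.055 to 0.28. *Cx3cr1*, a receptor of monocytes and macrophages, was at 14.1 ± 0.199 against 14.1 ± 0.842 CPM. *Xcl1* had a log2 fold change of 0.00 ± 0.23, while *Xcr1*, the receptor of cross-presenting dendritic cells, had 0.17 ± 0.18. Among the atypical receptors, *Ackr1*, the venular chemokine receptor, had 0.03 ± 0.11, and *Ackr4*, which takes up *Ccl19* and *Ccl21*, had 0.02 ± 0.17. *Ackr2*, which degrades inflammatory CC ligands, had 0.33 ± 0.20, or 0.20 to 0.48 with each mouse left out.

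**Figure D4:**
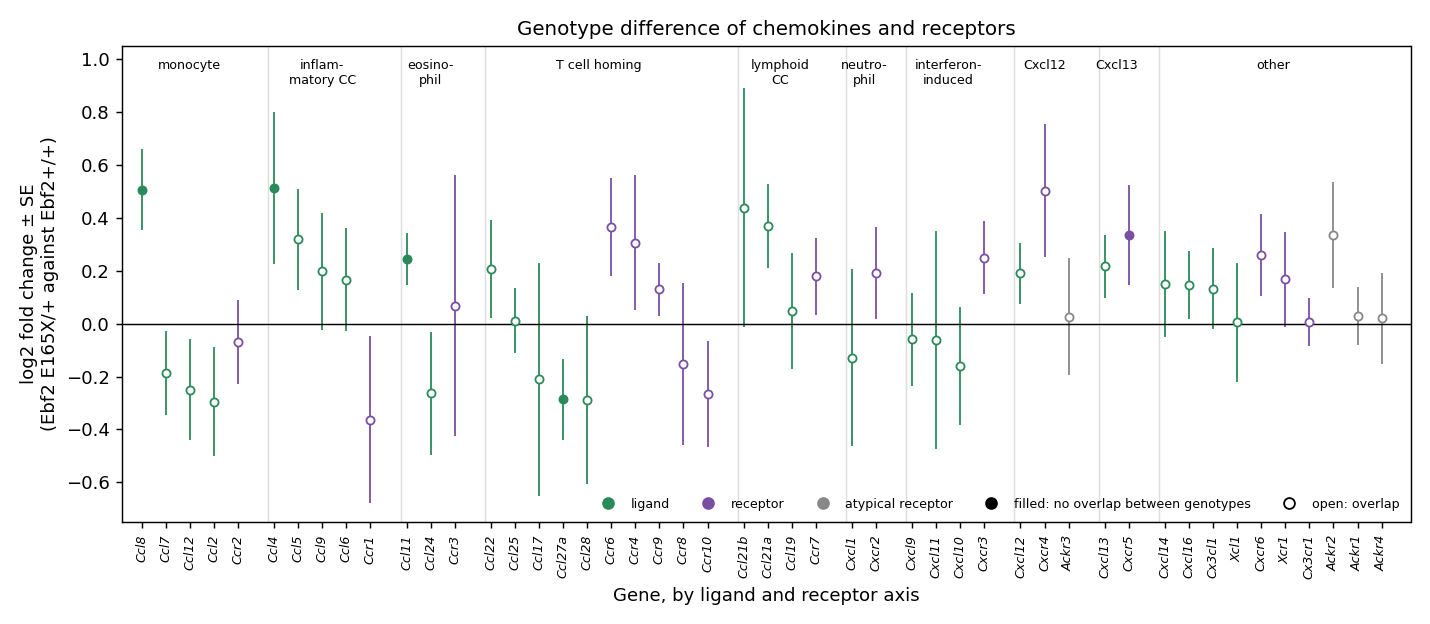
Log2 fold change (*Ebf2E165X/+* against *Ebf2+/+*, with its SE from edgeR) of 48 members with at least 10 counts in every library, grouped by ligand and receptor axis and coloured by role. Filled points are the 5 genes whose genotypes did not overlap (*Ccl8*, *Ccl4*, *Ccl11*, *Cxcr5* and *Ccl27a*), and most other intervals of 1 SE cross or lie near 0.

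Per kilobase of annotated exon, the order of levels over all 6 mice was *Ccl21a* (193 CPM per kilobase), *Ccl8* (117), *Ccl6* (63.5), *Cxcl13* (47.8), *Ccl19* (45.5), *Cxcl12* (41.9) and *Ccl5* (41.5). The last 4 differed from each other by less than the spread of *Ccl19* between the *Ebf2+/+* mice. This scale holds only if reads cover whole transcripts, and the sources disagree on whether these libraries read the 3′ end alone.

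Mice of the same genotype varied more in these genes than in the median gene, and the *Ebf2+/+* mice more than the *Ebf2E165X/+* mice. Over the 49 members with at least 10 counts in every library, the median coefficient of variation was 20.0% in *Ebf2+/+* mice and 12.4% in *Ebf2E165X/+* mice. Over all 18905 such genes it was 10.4% and 10.3%. *Ebf2+/+* mouse 1 had the lowest CPM for 25 of the 49 members, which is 51.0% beside 23.9% of all genes, and *Ebf2+/+* mouse 2 for 10. *Ebf2+/+* mouse 3 was lowest for 1 and highest for 11. Over all 59 members, its own median difference from the *Ebf2+/+* mean was 0.09 on the log2 scale. That was above the value of any *Ebf2E165X/+* mouse, at 0.02, 0.05 and 0.07.

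A library that stood apart for another reason was that of *Ebf2E165X/+* mouse 3. The 8 skeletal muscle markers summed to 44794 CPM there and to 756 to 7607 CPM in the other mice, and the 8 adipocyte markers, led by *Lpl*, to 14649 CPM against 21095 to 24685 CPM. Without that mouse the log2 fold change was 0.53 for *Ccl8*, 0.18 for *Ccl11* and 0.41 for *Cxcr4*, and the median over the members was 0.065. Erythroid markers summed to 1492 to 2359 CPM against 1410 to 3284 CPM.

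The signalling genes downstream of these receptors, with related ligands and the cytokines that induce them, were followed in a list of 64. edgeR called 0 of 64 and gave 1 higher and 1 lower at an unadjusted *P* under 0.05, beside backgrounds of 0.00918% called, 1.68% higher and 3.09% lower. Both shares were near or below the background. The gene lower was *Rgs2*, a GTPase-activating protein that shortens G protein signals, with 8111, 9023 and 11699 counts against 6765, 4764 and 6862. All 3 *Ebf2E165X/+* mice were lower, with a log2 fold change of -0.72 ± 0.18 (SE), an unadjusted *P* of 0.00446 and an adjusted *P* of 0.783 from edgeR, and an adjusted *P* of 0.0319 from DESeq2. At the same thresholds DESeq2 thus called 1 of 64, *Rgs2*, beside 0.283% of all genes. The gene higher was *Pik3cg*, the phosphoinositide kinase subunit that G protein βγ subunits activate in leukocytes, with 3730, 3571 and 4892 counts against 4634, 5265 and 5296. Its log2 fold change was 0.24 ± 0.096, with an unadjusted *P* of 0.0367 from edgeR.

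Of the 64 genes 46 (71.9%) had a log2 fold change above 0, beside 52.1% of all genes, and the median of the 64 was 0.095. Without overlap, 10 were higher and 2 lower, beside 5.09% and 5.75% of all genes tested. Most of the 64 had at least 10 counts in every library. Over all genes with such counts, 56.1% were above 0, and 6.66% were higher and 6.78% lower without overlap. The 10 comprised *Arrb2* and *Grk2*, which silence activated receptors; the kinase subunits *Pik3cg* and *Pik3cd*; *Rac2* and *Elmo1*, which drive the leading edge of moving leukocytes; the integrin subunits *Itgb2* and *Itga4*; and *Stat3* and *Il1a*. Beside *Rgs2*, the gene lower without overlap was *Cmklr1*, the receptor of the adipokine chemerin, at 71.9 ± 3.96 against 62.6 ± 5.98 CPM. *Rac2* was at 137 ± 19.5 against 163 ± 6.84 CPM, and *Itga4* at 119 ± 14.1 against 138 ± 8.05 CPM. In both, *Ebf2+/+* mouse 1 was the lowest mouse. The part of leukocytes in the values of these signalling genes was not tested.

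Of the 59 genes, 10 had under 10 counts in at least 1 library. They were the *Ccl21b* entry on chromosome 4, *Ccl21d*, *Ccl1*, *Ccl3*, *Ccl20*, *Ccl27b*, *Ccr1l1*, *Cxcl2*, *Cxcl5* and *Cxcr1*. The SE of the log2 fold change was 0.46 to 1.59 in the last 8, against 0.15 for *Ccl8*. The 10 entries under the minimum had 0 to 9 counts over all libraries and included *Ccl26*, *Cxcl3*, *Cxcl15* and *Cxcl17*.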

How the data were processed

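Bulk RNA-seq libraries of IWAT from 6 mice were quantified by the authors, who deposited expected counts, each an estimated fragment number for a gene, with no scaling for library size. All 332946 deposited values were whole, so rounding changed none. The submitters' processing notes name cutadapt 4.8, FastQC 0.11.8, STAR 2.7.8a, RSEM 1.3.3, MultiQC 1.20 and GRCm38. The library kit is given as a 3′ mRNA kit in one source and as another maker's kit in the labels, which bears on comparisons between genes of different length but not on those between genotypes. Whether the counting used strand is not given in the sources used here.

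Genotypes were taken from the labels. Genes counted at least 1 time in some library were fitted with edgeR 4.0.16 (TMM, quasi-likelihood test) on genotype alone in R 4.3.3, with Benjamini-Hochberg adjustment across the 32664 genes tested. The called genes had an adjusted *P* under 0.05 and a linear fold above 1.5. DESeq2 1.42.0 without independent filtering, limma-voom (limma 3.58.1), DESeq2 size factors in edgeR, stricter filters, a replicate block and leaving out each mouse were tried. No permutation of 3 against 3 mice can give a two-sided *P* below 0.1, so none was run. Coordinates and exon lengths are from GENCODE M21 (GRCm38), which held 55227 of 55491 gene IDs, and gene names are those of the table. Named with values were members with an unadjusted *P* under 0.05, members without overlap, the 12 most counted members, the 5 largest and 5 smallest log2 fold changes among members with at least 10 counts in every library, and the ligands and receptors of each axis. The counts and sums cover all members, but 1 member is not reported here by itself. The members, the gene lists and the tests were chosen with earlier results of these data known. Nothing says more of the replicates than that they are separate mice, and batches of handling are not known.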

Additional observations from a re-analysis of the deposited data

How the results depend on the processing

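No member was called under any of the alternatives run. The count at an unadjusted *P* under 0.05 was 3 of 59, beside 4.77% of all genes. It was 5 with DESeq2 (4.87% of all genes), 5 with a replicate block (3.92%) and 1 to 11 with each mouse left out (3.27% to 5.45%), the most without *Ebf2+/+* mouse 3 (5.40%), then 7 without *Ebf2+/+* mouse 2 (3.98%), and the fewest without *Ebf2E165X/+* mouse 1 (5.20%). The count of members without overlap was 5, beside 10.8% of all genes in both directions. It was 3 with DESeq2 size factors (10.7%), 3 with a minimum of 10 counts in each library (13.03%), and 6 to 16 with each mouse left out (17.9% to 21.8%), again the most without *Ebf2+/+* mouse 3 (14 higher beside 9.84% of all genes, and 2 lower beside 11.99%). *Ccl8*, *Ccl4* and *Ccl27a* were among them under every alternative that gave this count. The median log2 fold change of the members was 0.048 to 0.19 with each mouse left out, and 0.13 with *Ccl21d* set to its bound against a floor of 3 counts. The sign of the log2 fold change turned with some mouse left out for 26 of the 59 members. Among these were 5 of the most counted members, whose values ran from -0.17 to 0.20 for *Ackr3* (below 0 without *Ebf2+/+* mouse 2, -0.15, or *Ebf2E165X/+* mouse 3, -0.17), from -0.11 to 0.30 for *Ccl19* (-0.11 without *Ebf2+/+* mouse 1, -0.062 without *Ebf2+/+* mouse 2 and -0.084 without *Ebf2E165X/+* mouse 2), from -0.042 to 0.32 for *Ccl6* and from -0.040 to 0.34 for *Ccl9* (both below 0 without *Ebf2+/+* mouse 2), and from -0.25 to 0.064 for *Ccr2* (above 0 without *Ebf2+/+* mouse 1). The summed level of the *Cxcl12* axis overlapped with DESeq2 size factors. Mice with the same replicate number did not deviate together (correlations of 0.15, -0.28 and -0.16 across 18905 genes), so the block pairs a number only. In no case was the cause tested. With 3 mice a genotype, a difference has to be well above its SE to be resolved, and genes of few counts have the widest SE. *Cxcr4*, at 0.50 ± 0.25 (SE), had an unadjusted *P* of 0.0826 from edgeR. Even *Ccl8*, at 0.51 ± 0.15 (SE), had an adjusted *P* of 0.783 from edgeR.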
